A study of Mus musculus with 4 samples.

Results

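The 10 genes described here encode transcription factors of globus pallidus and striatal projection neurons: Npas1, Foxp1, Foxp2, Foxp4, Meis1, Meis2, Ebf1, Bcl11b, Ikzf1 and Etv1. They were chosen by symbol from a fixed list, and all 10 were found among the 34968 gene symbols shared by the 4 libraries. The study asked whether St18, a zinc finger factor of the Myt1 family, moves neurons of the medial ganglionic eminence (MGE) towards a projection neuron identity. Both lines came from one male mouse embryonic stem (ES) cell line of C57/BL6 strain carrying Dlx6a-Cre and the Ai9 tdTomato reporter, were clonally selected, and expressed Nkx2-1 and a tetracycline transactivator from a Nestin transgene. The N/D line had Dlx2 under the Tet-responsive promoter, and the N/D/S line had Dlx2 together with V5-tagged St18. How many clones stood for each line is not given in the sources used here. Embryoid bodies of both lines were grown for 12 days with the Wnt inhibitor XAV-939 and the Sonic hedgehog agonist SAG, and tdTomato+ cells were sorted for poly-A RNA-seq, with 2 libraries per line. Nothing in the labels says that the libraries of a line came from separate differentiations, so a p measures only the spread between these libraries.

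The external globus pallidus holds prototypic neurons, which largely arise in the MGE and project to the subthalamic nucleus, and arkypallidal neurons, which project back to the striatum. The striatum holds the spiny projection neurons of the direct and indirect pathways, which arise in the lateral ganglionic eminence. These classes are told apart in tissue by combinations of the factors described here, several of which are also made by other cells of the forebrain.

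Values are TPM, a relative transcript level already divided by length, from which read depth cannot be recovered. St18 was at 44.4 and 15.9 TPM under the N/D/S label, against 28.5 and 26.6 TPM under the N/D label, replicate 1 first here and below. It therefore did not separate the lines, and every direction below rests on the labels. The library labelled N/D replicate 1 stood apart from the others. Among genes that reached 10 TPM in all of the others, 9.99% were listed at 0 in it, against at most 0.0434% in the same comparison for any other library. Markers of GABAergic neurons were present in all 4 libraries, with Gad1 (a GABA synthesis enzyme) at 27.4 to 97.8 TPM. Gad2 was at 42.0 to 168.7 TPM and Dlx5 at 136.3 to 206.2 TPM. Slc32a1, another such marker, was at 1.55 TPM in N/D replicate 1 and at 10.9 to 13.9 TPM in the others. Tubb3 (neuronal tubulin) was at 1509 to 2774 TPM. Pvalb, the calcium-binding protein by which mature prototypic neurons are counted, was listed at 0 in 3 libraries and at 0.25 TPM in the fourth.

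None of the 10 factors separated the lines. For each one, the range of the libraries labelled N/D/S overlapped that of the libraries labelled N/D. Among the 12975 genes that reached 1 TPM in 2 or more libraries, 8.69% were higher in both N/D/S libraries than in both N/D libraries and 8.23% were lower in both. For the 9 factors that reached this level, the count was 0 in each direction. Differences were fitted with limma on log2(TPM + 1) over all these genes, with Benjamini-Hochberg adjustment. At an adjusted p under 0.05, 0% of the genes were called higher and 0% lower, and at an unadjusted p under 0.05, 0.0617% were called in either direction, which is 8 genes and none of the factors. The adjusted p was 1 for each of the 9 factors in this limma fit. An exact permutation test of 2 against 2 libraries cannot give a two-sided p below 0.333. The median log2 ratio of N/D/S to N/D was 0.13 over the 9 factors and 0.26 over all genes tested. Without the library labelled N/D replicate 1, these medians were 0.25 and −0.29. With any 1 library left out, 2 libraries stood against 1. The groups then did not overlap for 4 of the 9 factors without N/D/S replicate 1 (53.2% of all genes tested), for 5 without N/D/S replicate 2 (57.7%), for 3 without N/D replicate 1 (45.3%) and for 6 without N/D replicate 2 (80.5%).

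**Figure D1:**
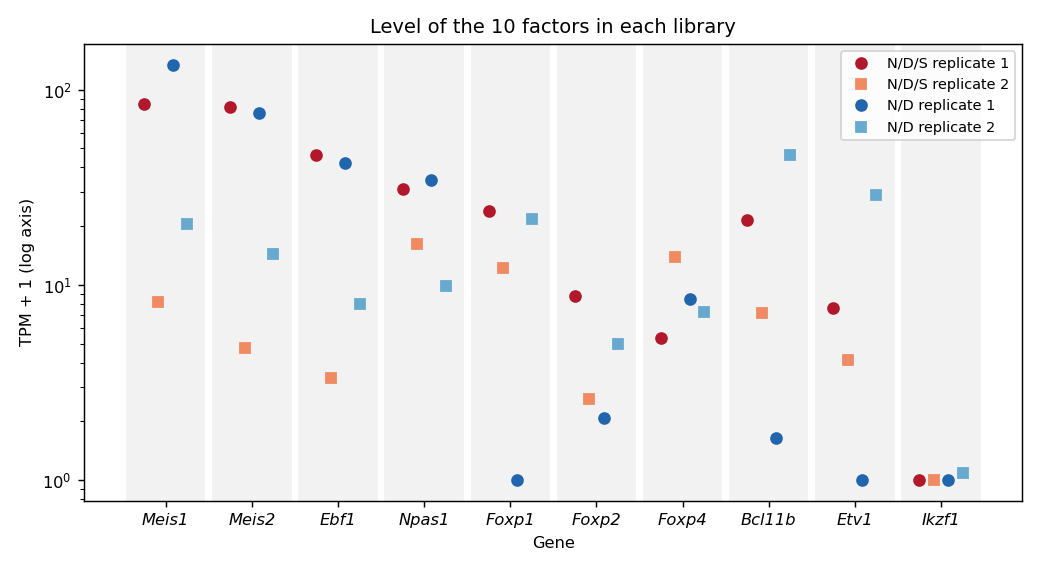
TPM + 1 of each of the 10 factors (log axis) in the 4 libraries, red for N/D/S and blue for N/D, circles for replicate 1 and squares for replicate 2. Red and blue points interleave for every gene, while both circles lie above both squares for Meis1, Meis2, Ebf1 and Npas1, and Ikzf1 lies at the bottom of the axis throughout.

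Of the factors of pallidal neurons, Npas1, Foxp2 and Etv1 had log2 fold changes above 0 with all 4 libraries, each smaller than its standard error, and for each the sign turned when some single library was left out. Npas1, a basic helix-loop-helix PAS factor that marks a large class of pallidal neurons, lies on chromosome 7 of GRCm38 from 16455721 to 16477728 on the minus strand. Its level was 30.1 and 15.1 TPM under the N/D/S label and 33.5 and 8.87 TPM under the N/D label. The highest and lowest values thus both came from N/D, and the means were 22.6 ± 10.6 TPM for N/D/S and 21.2 ± 17.4 TPM for N/D (SD, n = 2). Its log2 fold change was 0.28 (standard error 1.10, limma adjusted p = 1), or 1.18 when the library labelled N/D replicate 1 was left out. Leaving out N/D/S replicate 1 or N/D replicate 2 turned the sign, to −0.19 and −0.62.

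Foxp2, a forkhead factor of arkypallidal neurons and of part of the striatal projection neurons, lies on the plus strand of chromosome 6 from 14901349 to 15441977. It was low in all libraries, at 7.74 and 1.60 TPM under the N/D/S label and 1.09 and 3.96 TPM under the N/D label. Each line had 1 library near 1 to 2 TPM and 1 library above 3 TPM. The log2 fold change was 0.56 (standard error 1.11, limma adjusted p = 1), and −0.06 without N/D replicate 1. Etv1, the ETS factor also known as Er81, was used in the study as a marker of prototypic neurons. It lies on the plus strand of chromosome 12 from 38779380 to 38870484. Etv1 stood at 6.65 and 3.12 TPM under the N/D/S label, was listed at 0 in N/D replicate 1, and was highest in N/D replicate 2 at 27.9 TPM. Both N/D/S values therefore lay between the 2 N/D values. Its log2 fold change was 0.06 (standard error 1.63, limma adjusted p = 1) with all libraries. Without N/D replicate 1 it was −2.36 (limma unadjusted p = 0.0389, adjusted p = 1), in a fit where 0.352% of genes had an unadjusted p under 0.05, and both N/D/S libraries were then below the N/D library that was left.

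Among the factors of striatal projection neurons, Foxp1 and Bcl11b had under 1 TPM in N/D replicate 1 alone. Ikzf1 had under 1 TPM in every library, and Foxp4 and Ebf1 in none. Foxp1, a forkhead factor of both striatal pathways, spans 597.4 kb of chromosome 6 from 98925338 to 99522721 on the minus strand. Foxp1 reached 22.8 and 11.2 TPM under the N/D/S label, whereas under the N/D label it was listed at 0 in replicate 1 and reached 20.6 TPM in replicate 2. The 3 libraries other than N/D replicate 1 thus lay between 11.2 and 22.8 TPM. Foxp1 had the largest log2 fold change of the 9 factors, 1.87 (standard error 1.54, limma adjusted p = 1), and this was −0.34 without N/D replicate 1. With N/D replicate 2 left out, the N/D side was a single library listed at 0, and the limma adjusted p was 0.00172, with both N/D/S libraries above it. That fit, with the spread of the lone library taken to be like that of the others, called 22.9% of 11619 genes higher.

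Bcl11b, the zinc finger factor also called Ctip2, is made by nearly all striatal projection neurons. It lies on the minus strand of chromosome 12 from 107910403 to 108003602. Bcl11b measured 20.5 and 6.19 TPM under the N/D/S label, against 0.64 and 45.4 TPM under the N/D label, so the N/D libraries held both extremes. The log2 fold change was 0.51 (standard error 1.66, limma adjusted p = 1). It was −1.90 without N/D replicate 1, and 2.92 (limma adjusted p = 0.0311) without N/D replicate 2, which left a single N/D library at 0.64 TPM and is the same fit. Foxp1, Bcl11b and Etv1 were the 3 of 9 factors with under 1 TPM in N/D replicate 1 alone. Among all genes tested 31.1% had that pattern.

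Foxp4, the third forkhead factor of this family in the brain, lies on the minus strand of chromosome 17 from 47867133 to 47924645 and varied least of the factors, at 2.95-fold from the lowest library to the highest. It measured 4.35 and 12.9 TPM under the N/D/S label, against 7.48 and 6.26 TPM under the N/D label, so both N/D values fell between the N/D/S values. The log2 fold change was 0.13 (standard error 1.02, limma adjusted p = 1), and 0.25 without N/D replicate 1. Leaving out N/D/S replicate 1 gave 0.82, and leaving out N/D/S replicate 2 turned the sign, to −0.55. Ikzf1 (Ikaros), a zinc finger factor of some striatal neurons and of blood cells, lies on the plus strand of chromosome 11 from 11685003 to 11772926. It was listed at 0 in both replicate 1 libraries, at 0.0049 TPM in N/D/S replicate 2 and at 0.0802 TPM in N/D replicate 2. Ikzf1 was the 1 factor of the 10 that did not reach the level for testing.

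**Figure D2:**
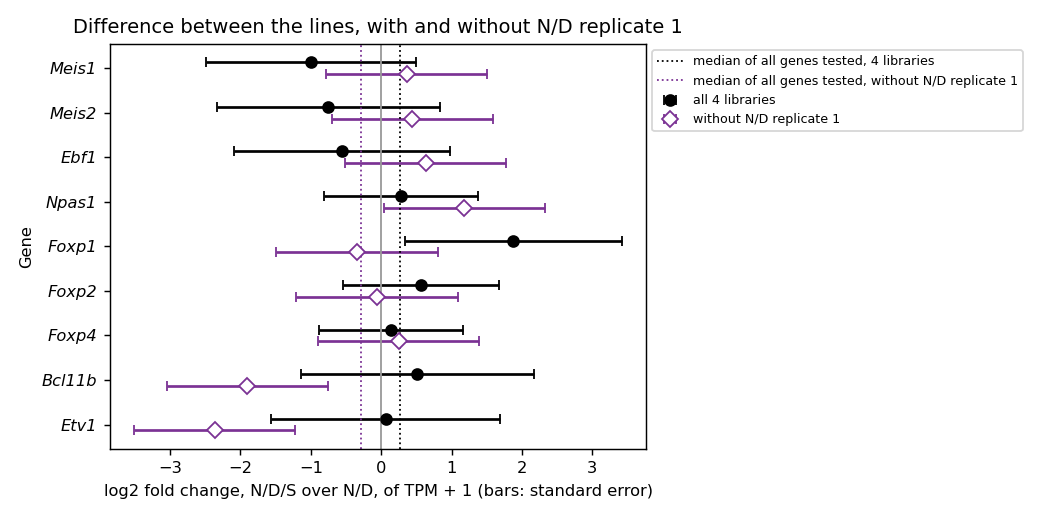
log2 fold change (N/D/S minus N/D) on the TPM + 1 scale for the 9 tested factors, with the standard error, from all 4 libraries (black) and from 3, leaving out N/D replicate 1 (purple), and the median of all genes tested as dotted lines. The estimate changes sign for 7 of the 9 factors when that library is left out, all but Npas1 and Foxp4.

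The remaining factors, Meis1, Meis2 and Ebf1, were high together in the replicate 1 libraries and low together in the replicate 2 libraries. Meis1 and Meis2 are TALE homeodomain factors that bind DNA with Pbx partners, and Meis2 is made in the lateral eminence and its striatal progeny. Ebf1 is a helix-loop-helix factor needed in differentiating direct pathway neurons. Promoters of these genes are shown because their levels went together. RefSeq (GRCm38.p6) gave 14 windows of 300 bases, from 250 before to 50 after a transcript start, for 9 of the 10 factors. Which start was used in these cells is not shown by values per gene. Capitals mark the MYT family core AAGTT on either strand, and the letters run 5′ to 3′ on the strand of the gene.
Meis1, chr11:19018920-19019219, minus strand: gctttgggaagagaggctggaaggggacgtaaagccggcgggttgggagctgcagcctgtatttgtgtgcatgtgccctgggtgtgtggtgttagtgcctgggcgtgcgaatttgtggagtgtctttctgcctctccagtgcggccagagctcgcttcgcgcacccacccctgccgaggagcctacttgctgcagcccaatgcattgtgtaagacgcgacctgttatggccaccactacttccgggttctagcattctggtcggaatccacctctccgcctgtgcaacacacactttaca
Meis2, chr2:116064570-116064869, minus strand: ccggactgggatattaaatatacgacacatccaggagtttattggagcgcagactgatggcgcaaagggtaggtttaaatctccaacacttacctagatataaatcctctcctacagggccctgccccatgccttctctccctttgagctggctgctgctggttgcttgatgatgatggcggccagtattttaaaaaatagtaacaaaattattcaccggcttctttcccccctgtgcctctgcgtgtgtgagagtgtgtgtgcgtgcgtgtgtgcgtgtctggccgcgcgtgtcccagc
Ebf1, chr11:44617850-44618149, plus strand: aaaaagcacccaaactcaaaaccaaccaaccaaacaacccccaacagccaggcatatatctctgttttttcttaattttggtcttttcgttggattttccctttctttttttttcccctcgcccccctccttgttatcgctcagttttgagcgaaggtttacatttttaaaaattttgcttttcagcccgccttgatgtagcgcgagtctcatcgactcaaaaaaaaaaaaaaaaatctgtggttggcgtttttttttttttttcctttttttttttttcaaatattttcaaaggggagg
Ebf1, chr11:44619978-44620277, plus strand: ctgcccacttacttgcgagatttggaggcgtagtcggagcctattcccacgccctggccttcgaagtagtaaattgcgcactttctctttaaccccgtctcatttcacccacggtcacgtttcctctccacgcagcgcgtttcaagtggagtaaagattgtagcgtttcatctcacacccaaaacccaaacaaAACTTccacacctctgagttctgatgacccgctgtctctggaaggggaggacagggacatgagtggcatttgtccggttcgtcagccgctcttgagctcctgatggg

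AAGTT, read on both strands, was in 1 of the 2 Ebf1 windows and in neither Meis window, and in 5 of the 14 windows of the factors, against 39.3% of the 32851 windows of all genes. The MEIS letters TGACAG were in 1 of the 14 windows, one of those of Foxp1, against 19.2% of all windows. The EBF palindrome, TCCC and GGGA with any 2 bases between, and the forkhead letters GTAAACA were in none of the 14, against 0.904% and 3.65% of all windows. Such a match is a string of letters and shows no binding. The Meis1 window was 58.3% G and C, the Meis2 window 51.0% and the Ebf1 windows 36.7% and 53.0%, with 52.7% as the median of all windows.

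Meis1, on the minus strand of chromosome 11 from 18879817 to 19018985, stood at 83.1 and 7.14 TPM under the N/D/S label, against 133.1 and 19.4 TPM under the N/D label. Meis2, on the minus strand of chromosome 2 from 115863064 to 116065839, was at 80.2 and 3.74 TPM under the N/D/S label, against 74.8 and 13.4 TPM under the N/D label. Ebf1, on the plus strand of chromosome 11 from 44617317 to 45008091, measured 45.4 and 2.31 TPM under the N/D/S label, against 41.0 and 6.99 TPM under the N/D label. For all 3 genes the replicate 1 library of each line was high and the replicate 2 library low. Within the N/D/S line, the replicate 1 library exceeded the replicate 2 library 11.6-fold for Meis1, 21.4-fold for Meis2 and 19.6-fold for Ebf1. Within the N/D line, the same ratios were 6.87, 5.57 and 5.87.

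Between the lines these genes differed by less than the spread within a line. Their log2 fold changes of N/D/S over N/D were −0.999 for Meis1, −0.75 for Meis2 and −0.56 for Ebf1, with standard errors of 1.50, 1.59 and 1.53 and limma adjusted p = 1 for each. Their residual standard deviations between libraries of a line were 2.16, 2.37 and 2.25. Without N/D replicate 1, the values were 0.36, 0.44 and 0.63, and without N/D/S replicate 2 they were also above 0, at 0.69, 1.30 and 1.34. Libraries with the same replicate number share one list of symbols in the deposited files, which differs between the numbers. Within replicate 1, the log2 difference of N/D/S minus N/D was −0.67 for Meis1, 0.10 for Meis2 and 0.14 for Ebf1. Within replicate 2, it was −1.32, −1.61 and −1.27. For the other tested factors the same differences within replicate 1 were −0.15 for Npas1, 4.57 for Foxp1, 2.06 for Foxp2, −0.66 for Foxp4, 3.71 for Bcl11b and 2.93 for Etv1. Within replicate 2 they were 0.71 for Npas1, −0.83 for Foxp1, −0.94 for Foxp2, 0.93 for Foxp4, −2.69 for Bcl11b and −2.81 for Etv1. The sign therefore differed between the numbers for 8 of the 9 factors, Meis1 being the exception, as it did for 65.6% of all genes tested.

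Both replicate 1 libraries were above both replicate 2 libraries for 4 of the 9 tested factors, Meis1, Meis2, Ebf1 and Npas1, against 14.8% of all genes tested. None of the 9 had the opposite order, against 14.7% of all genes tested. For Npas1 the lowest replicate 1 value was 1.99 times the highest replicate 2 value. The corresponding ratio was 4.29 for Meis1, 5.57 for Meis2 and 5.87 for Ebf1. A ratio of at least 4, a limit chosen after the values were seen, was found for these 3 factors and for 0.832% of all genes tested.

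The 3 genes were grouped because their levels went together, so the proportions among them varied far less than their levels. The ratio of Meis1 to Meis2 TPM was 1.04 and 1.91 under the N/D/S label and 1.78 and 1.44 under the N/D label. Ebf1 stood at 0.55 and 0.32 times Meis1 in N/D/S and at 0.31 and 0.36 times in N/D. Each gene alone spanned 18.6-fold (Meis1), 21.4-fold (Meis2) and 19.6-fold (Ebf1) over the same libraries. By Euclidean distance in log2(TPM + 1) over the 4 libraries, Meis1 and Meis2 were each other's nearest factor, at 1.24, and the factor nearest to Ebf1 was Meis2, at 1.54.

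Several marker lists of other cells also followed the replicate number. Olig1, a factor of oligodendrocyte precursors, was at 0.52 and 0 TPM in the replicate 1 libraries of N/D/S and N/D and at 24.2 and 47.5 TPM in the replicate 2 libraries. The summed level of 8 glial markers was 4.04 and 5.31 TPM in replicate 1 against 59.4 and 109.0 TPM in replicate 2, and all 6 that reached the level for testing had this order. Gfap and Aqp4 were at 0 in both replicate 1 libraries. The 5 pluripotency markers summed to 0.65 and 0.25 TPM in replicate 1 against 28.3 and 24.0 TPM in replicate 2, in the same order of lines.

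The opposite order was seen in the sum of the 8 glutamatergic neuron markers, at 20.7 and 17.3 TPM in replicate 1 and 2.19 and 5.76 TPM in replicate 2. In replicate 1 most of this was Slc17a6, the vesicular glutamate transporter of subcortical neurons, at 18.4 and 13.8 TPM against 0.73 and 2.44 TPM. Of the 2 that reached the level for testing, Slc17a6 had this order and Neurod1 did not, at 1.40 and 0 TPM against 0 and 1.28 TPM. Fezf2, below that level, ran the other way, at 0 TPM in both replicate 1 libraries and 0.91 and 0.98 TPM in replicate 2. Slc17a7 was at most 0.49 TPM and Neurod2 at most 0.04 TPM in any library. The 9 blood cell markers summed to 0.97 and 0.01 TPM in replicate 1 and 21.4 and 19.6 TPM in replicate 2, where most of it came from the globin genes Hba-a1 and Hbb-bt, with Cd79a at 0 in all libraries. The 6 mesenchymal and endothelial markers summed to 12.4 and 38.8 TPM in replicate 1 and 29.0 and 33.1 TPM in replicate 2. The 8 neural progenitor markers gave no common order, with Fabp7 at 179.1 and 133.6 TPM in replicate 1 and 505.6 and 906.5 TPM in replicate 2, and Vim at 150.1 and 219.2 TPM against 78.3 and 122.9 TPM. Of these 8, Vim and Pax6 were higher in both replicate 1 libraries and Fabp7 alone was lower in both, while their sums were 507.3 and 436.3 TPM against 700.1 and 1215 TPM. The 8 pan-neuronal markers summed to 5067 and 4498 TPM in replicate 1 and 3425 and 3273 TPM in replicate 2. Of these 8, Dcx, Stmn2 and Elavl4 were higher in both replicate 1 libraries and none was lower in both, against 14.8% and 14.7% of all genes tested. The sum of the 6 GABAergic markers did not follow the number, at 987.4 and 391.9 TPM across N/D/S, against 500.1 and 865.8 TPM across N/D, in replicate order. Of these 6, Gad2 was higher in both replicate 1 libraries, at 168.7 and 140.8 TPM against 42.0 and 83.7 TPM, and the other 5 had neither order. The part of these cells in the levels of Meis1, Meis2, Ebf1 and Npas1 was not tested. In sorted bulk samples, fewer cells of a type and less RNA per cell cannot be told apart.

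**Figure D3:**
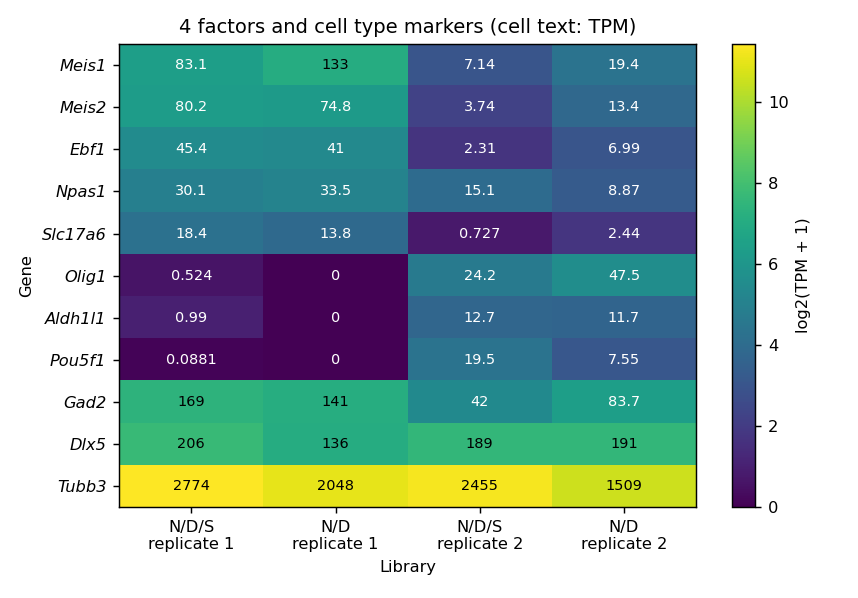
Level of 4 factors and 7 markers as log2(TPM + 1) (colour) with TPM written in each cell, libraries ordered by replicate number. Meis1, Meis2, Ebf1, Npas1, Slc17a6 and Gad2 are higher in both replicate 1 libraries, and Olig1, Aldh1l1 and Pou5f1 in both replicate 2 libraries. Dlx5 runs from 136.3 to 206.2 TPM over the 4 libraries.

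Levels of related genes put the factors beside their families, per length. Meis3, the third Meis gene, was at 165.0 and 139.2 TPM under the N/D/S label, against 285.4 and 113.0 TPM under the N/D label, and was the largest Meis transcript in every library. Its share of the summed Meis TPM was 50.3% and 92.8% in N/D/S and 57.9% and 77.5% in N/D. In the Foxp family, Foxp1 held 65.3% and 43.6% in N/D/S and 66.7% in N/D replicate 2, whereas in N/D replicate 1 Foxp4 held 87.2% of a sum of 8.58 TPM. Foxp2 held 6.22% to 22.1% over the 4 libraries. Foxp3, the factor of regulatory T cells, held at most 0.20%.

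Ebf1 shared its family with other Ebf genes in unequal ways. Ebf1 held 67.1% of the summed Ebf TPM in N/D/S replicate 1, while Ebf4 held 71.2% of it in replicate 2 of that line and 59.0% in replicate 2 of the N/D line. In N/D replicate 1 the family was made up of Ebf3 at 56.1 TPM and Ebf1, with Ebf2 and Ebf4 listed at 0. Bcl11a exceeded Bcl11b in every library, with 45.6 and 38.7 TPM across N/D/S, against 21.0 and 63.5 TPM across N/D. Bcl11b thereby made up 31.0% and 13.8% of their sum in N/D/S and 2.95% and 41.7% in N/D. Etv4 and Etv5, the nearest relatives of Etv1, were also listed at 0 in N/D replicate 1, and Etv1 held 64.5% and 26.6% of the 3 genes' sum in N/D/S and 75.5% in N/D replicate 2. Among the Ikaros genes, Ikzf1 held at most 0.50%, and Ikzf5 held 46.5% and 36.8% in N/D/S and 39.7% in N/D replicate 2, being nearly the whole sum in N/D replicate 1. Npas1 held 70.4% and 86.5% of the summed Npas TPM in N/D/S and 80.7% and 39.9% in N/D, most of the rest being Npas3.

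**Figure D4:**
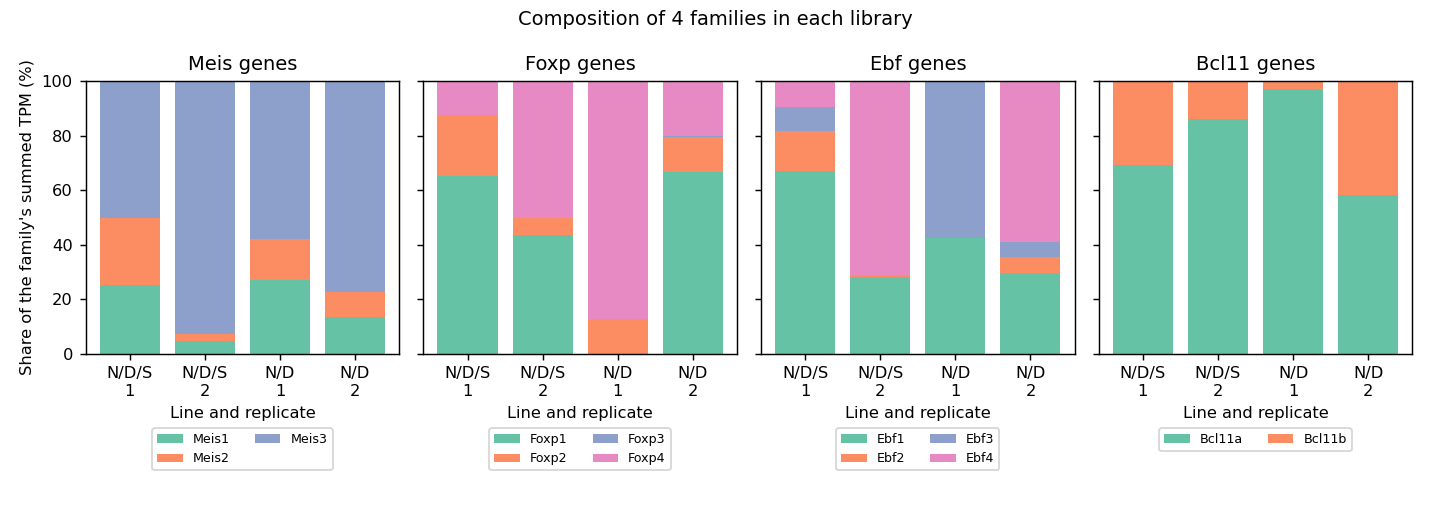
Share of each gene in the summed TPM of the Meis, Foxp, Ebf and Bcl11 families, stacked to 100% in each library. Meis3 holds at least 50.3% of the Meis sum everywhere, and the N/D replicate 1 bars lack Foxp1, Ebf2 and Ebf4.

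The mean levels of a line were led by Meis1, Meis2 and Ebf1 through the replicate 1 libraries. In the replicate 2 libraries other factors led, with Npas1 at 15.1 TPM, Foxp4 at 12.9 TPM and Foxp1 at 11.2 TPM above these 3 genes in N/D/S, and Bcl11b at 45.4 TPM, Etv1 at 27.9 TPM and Foxp1 at 20.6 TPM above them in N/D. In the N/D/S line the means were 45.1 ± 53.7 TPM for Meis1, 41.9 ± 54.0 for Meis2, 23.9 ± 30.5 for Ebf1, 22.6 ± 10.6 for Npas1, 17.0 ± 8.24 for Foxp1, 13.3 ± 10.1 for Bcl11b, 8.61 ± 6.01 for Foxp4, 4.88 ± 2.50 for Etv1 and 4.67 ± 4.34 for Foxp2 (SD, n = 2). In the N/D line they were 76.3 ± 80.4 TPM for Meis1, 44.1 ± 43.4 for Meis2, 24.0 ± 24.1 for Ebf1, 23.0 ± 31.7 for Bcl11b, 21.2 ± 17.4 for Npas1, 6.87 ± 0.86 for Foxp4 and 2.53 ± 2.03 for Foxp2. Foxp1 and Etv1 were each listed at 0 in one N/D library and are given above by library. Neighbours in this order overlapped between libraries, except that Foxp2 lay above Ikzf1 in both lines, and in N/D Foxp4 above Foxp2 and, with Foxp1 and Etv1 left out of the order, Npas1 above Foxp4.

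Other genes of the same neurons and the partners of these factors gave no called difference. Of 15 dimer and cofactor partners, all 15 reached the level for testing and 0 passed an adjusted p of 0.05 in the limma fit in either direction. Pbx2, a Meis partner, was higher in both libraries labelled N/D/S, at 27.4 and 25.2 TPM against 24.7 and 21.0 TPM (log2 fold change 0.20, limma adjusted p = 1). Pbx4 stood at 73.2 and 137.3 TPM under the N/D/S label, against 91.3 and 77.8 TPM under the N/D label, and Pbx3 at 143.9 and 7.06 TPM against 16.4 and 35.7 TPM. Arnt2, a dimer partner of PAS factors such as Npas1, was at 26.0 and 8.86 TPM under the N/D/S label, against 3.02 and 22.9 TPM under the N/D label.

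Among 13 pallidal neuron genes, 10 were tested and 0 were called in either direction. Lhx8, a LIM homeodomain factor of the MGE, measured 141.2 and 112.1 TPM under the N/D/S label, against 46.9 and 196.7 TPM under the N/D label. Among 18 striatal projection neuron genes, 15 were tested and 0 were called. In N/D replicate 1, 11 of the 15 tested were listed at 0, as were 26.1% of all genes tested and 2 of the 9 tested factors. Isl1, a LIM homeodomain factor of direct pathway and cholinergic neurons, measured 151.5 and 20.3 TPM under the N/D/S label, against 1.26 and 63.2 TPM under the N/D label. Tac1, the substance P precursor of the direct pathway, was higher in both N/D/S libraries, at 33.5 and 15.5 TPM, than in N/D, where it was listed at 0 in replicate 1 and had 14.9 TPM in replicate 2. Both replicate 1 libraries were above both replicate 2 libraries for 2 of the 10 pallidal genes tested and 0 of the 15 striatal ones. The opposite order was found for 3 of the pallidal and 4 of the striatal genes. Among all genes tested, 14.8% had the first order and 14.7% the opposite. The median log2 fold change was 0.37 for the pallidal list and 0.80 for the striatal list, against 0.26 for all genes tested. Without N/D replicate 1, these medians were −0.46 and −0.51, against −0.29. For 15 paralogues of the factors, of which 10 were tested and 0 called, the medians were 0.42 with all libraries and −0.21 without that one, and for the 15 partners 0.26 and −0.42.

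For the 6 factors that reached 1 TPM in all 4 libraries, the nearest other gene over the 4 libraries was sought among all genes tested, by the same Euclidean distance. It was Crtac1 for Npas1 (distance 0.44), Amt for Foxp2 (0.24), Mef2b for Foxp4 (0.64), Cbln2 for Meis1 (0.89), Asic4 for Meis2 (0.80) and Robo2 for Ebf1 (0.70). Robo2, an axon guidance receptor, stood at 38.8 and 3.71 TPM under the N/D/S label, against 45.4 and 9.59 TPM under the N/D label. Cbln2, a secreted synapse organizer, stood at 60.6 and 3.80 TPM under the N/D/S label, against 140.7 and 19.6 TPM under the N/D label. Both were picked for this likeness, so that they followed the replicate number as Ebf1 and Meis1 did was fixed by the choice. With 4 libraries, such likeness is a description of these libraries alone.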

How the data were processed

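RNA of sorted tdTomato+ cells from 4 libraries, 2 per line, was analysed as deposited. The authors ran kallisto 0.44.0 on a mouse transcriptome and deposited one TPM value per gene symbol and library. The submitters' processing notes name GRCm38 and sleuth. How transcripts were combined into genes, and how reads shared by paralogues such as the Foxp and Meis genes were divided, is not given in the sources used here. Low values and zeros therefore cannot be tied to a depth. TPM is relative within a library, and no scaling between libraries is stated. 24 symbols that had become dates were left out, which included both symbols listed in duplicate.

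Groups and replicate numbers came from the labels. limma 3.58.1 (R 4.3.3) was fitted to log2(TPM + 1) without covariates. Genes had to reach 1 TPM in 2 or more libraries, which 12975 did, and p-values were adjusted by Benjamini-Hochberg over them with a threshold of 0.05. The fit was checked on simulated data first, with a pass condition only at a spread smaller than that of any tested factor. That check does not show how well changes are found at the spread of these libraries. A fold change on this scale understates the change of low genes. sleuth was not used here, since the files hold no replicate estimates per transcript. The members and gene lists were chosen with earlier results of these data known. Genes named are the 10 factors, genes of lists of paralogues, partners, neuron genes and cell type markers, and the gene nearest to each factor with at least 1 TPM in every library. Gene positions came from GENCODE M21 (GRCm38) and promoter windows from RefSeq (GRCm38.p6). Python 3.11.15 (pandas 2.3.3, numpy 2.4.6, matplotlib 3.10.9) was used for tables and plots. Alternatives were other pseudocounts, filters and scalings, a variance trend, replicate number as a block, and each library left out in turn. The overlap of groups with a library left out was added after the values were seen.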

Additional observations from a re-analysis of the deposited data

How the results depend on the processing

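In the 4-library settings, 0 factors were called in any, and the lowest unadjusted limma p of a factor was 0.204. For 14 results, 186 values were obtained under other settings. Of these, 23 changed sign, 9 counts moved away from 0, 2 values passed the threshold and the other 152 did none of this. The cause of these changes was not tested. With quantile normalization the median log2 fold change of the factors was −0.46, with Foxp2 at −0.46, Foxp4 at −0.093, Bcl11b at −0.76 and Etv1 at −0.68, while the median of all genes was −0.05. With at least 1 TPM in every library, which left 6 factors, the median was −0.21. The variance trend gave 5 genes higher and 1 lower, none of them a factor, and all other 4-library settings gave 0 and 0. In those fits limma gave an unadjusted p under 0.05 for 8 to 207 genes. The setting named natural log with a pseudocount of 0.5 repeated the log2 fit with 0.5 and adds no separate check. Its values are counted again among the 186.

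With one library left out, the line with a single library was assumed to vary like the other, and p rests on a spread pooled over genes. The genes called higher then ranged from 0 to 2664 and those called lower from 0 to 245, both highest without N/D replicate 2, and the factors called from 0 to 2. The factors whose groups did not overlap numbered 3 to 6 of 9, where 45.3% to 80.5% of all genes tested did not overlap, and the median of the factors ran from −0.31 to 1.30. The log2 fold changes ran from −0.62 to 1.18 for Npas1, −0.34 to 4.09 for Foxp1 (the highest against a library listed at 0), −0.31 to 1.44 for Foxp2, −0.55 to 0.82 for Foxp4, −2.68 to 0.69 for Meis1, −2.80 to 1.30 for Meis2, −2.47 to 1.34 for Ebf1, −1.90 to 2.92 for Bcl11b and −2.36 to 2.49 for Etv1.

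The replicate numbers are not tied to a shared differentiation or batch in the labels, and the deviations of same-numbered libraries had a correlation of 0.02 across the 12975 genes. With replicate number as a replicate block, 0 genes and 0 factors were called, the median of the factors was 0.13, and the standard errors were 1.27 for Meis1, 1.30 for Meis2 and 1.29 for Ebf1. Ikzf1 was tested only without a filter. TPM gives no depth, and the precision of the low values of Foxp2, Etv1 and Ikzf1 was therefore not assessed.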
